A study of Mus musculus with 16 samples.

Results

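The 95 probes described here were those whose expression was higher at 6 h than at 0 h after E1A induction in mouse embryonic stem cells and had fallen again by 24 h. On normalized log2 intensities the probes were chosen by 2 measured differences: a 6 h mean at least 0.5 above the 0 h mean, and a 24 h minus 6 h difference of -0.4 or less. They made up 0.68% of the 13974 probes that were detected often enough to be tested, out of 25697 on the array. Of the 95 probes, 86 were paired with a gene, for 81 different genes, and 9 had no gene in the probe table and are named by their Illumina number. Sox21, Btbd3, Klf12, Ovol2 and Sgk3 were each represented by 2 of the 95 probes.

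The embryonic stem cells were of mixed C57BL/6, C3H and CD1 descent, per the labels, which give E1A induction as the treatment of all 16 samples. E1A, made early in adenovirus infection, is a protein that releases E2F from the retinoblastoma proteins and also sequesters the co-activators p300 and CBP. Total RNA was hybridised to single-colour Illumina bead arrays, 1 array per sample and 2 per group, at 0, 3, 6, 9, 12, 24 and 48 h of induction. The last group, also harvested at 48 h, is labelled a cherry control; it is called the 48 h control here, and whether its cells carried E1A is not stated in the labels used here. No promoter, cell line or clone is named in those labels. Because the labels do not say that the 2 replicates of a group were separate cultures, the p-values below rest on a sample-to-sample spread that may be technical only.

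Raw median intensities were 122 to 136 per array, and 12124 to 12639 probes per array had a detection p-value under 0.05. Replicates correlated at r of 0.995 to 0.997 within groups. With 2 arrays per group, the number of arrays limits the precision: the median standard error of a difference between 2 groups was 0.12 on the log2 scale. Embryonic stem cell markers were present, with Pou5f1 at 12.42, Nanog at 11.67 and Dppa5a at 14.36 on the log2 scale at 0 h (one probe each). Not all marker probes were bright: a further Dppa5a probe (ILMN_2774896) stood at 4.89 at 0 h. The 15 marker genes had 27 tested probes and none was among the 95 (0.68% of all tested probes were). Of the 27, 20 were lower and 2 higher at 48 h than in the 48 h control (9.05% and 8.85% of all tested probes). In these bulk samples, fewer cells of a type and less RNA per cell cannot be told apart.

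Several of these genes belong to well-studied families. Id proteins carry a helix-loop-helix domain without a DNA-binding region; they pair with basic helix-loop-helix factors and keep them off DNA, are direct targets of bone morphogenetic protein (BMP) signalling, and help to hold mouse embryonic stem cells in self-renewal. Immediate early genes such as Arc and Egr4 are switched on by signalling without new protein synthesis, and their RNAs are usually short-lived. POU, OTX, SOX and T-box factors direct the first lineage choices of the embryo.

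The promoters of 4 members that the results below turn on are shown, each picked as an example of a motif that was searched for. Each window runs from 250 bases before to 50 bases after the start of the gene in RefSeq (GRCm38.p6), read 5′ to 3′ on the strand of the gene. Capitals mark GGCGCC (a core of BMP response elements) in Id4, GAANNTTC (heat shock element) in Hspa1a, TGACGTCA (cAMP response element) and GGCGCC in Dusp1, and TGACGTCA in Epha2. The windows lie at chr13:48260866-48261165 (plus strand, Id4), chr17:34972107-34972406 (minus strand, Hspa1a), chr17:26508423-26508722 (minus strand, Dusp1) and chr4:141300971-141301270 (plus strand, Epha2).
Id4: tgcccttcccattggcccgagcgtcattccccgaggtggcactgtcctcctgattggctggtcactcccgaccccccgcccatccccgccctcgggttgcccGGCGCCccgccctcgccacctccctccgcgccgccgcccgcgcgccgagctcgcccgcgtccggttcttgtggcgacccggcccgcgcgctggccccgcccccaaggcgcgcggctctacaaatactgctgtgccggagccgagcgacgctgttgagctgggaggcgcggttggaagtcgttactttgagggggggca
Hspa1a: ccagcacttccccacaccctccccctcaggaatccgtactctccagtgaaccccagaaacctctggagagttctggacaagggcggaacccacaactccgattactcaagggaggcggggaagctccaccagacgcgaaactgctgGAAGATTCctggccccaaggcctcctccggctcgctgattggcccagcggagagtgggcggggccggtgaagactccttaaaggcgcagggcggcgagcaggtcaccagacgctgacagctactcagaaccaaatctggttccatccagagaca
Dusp1: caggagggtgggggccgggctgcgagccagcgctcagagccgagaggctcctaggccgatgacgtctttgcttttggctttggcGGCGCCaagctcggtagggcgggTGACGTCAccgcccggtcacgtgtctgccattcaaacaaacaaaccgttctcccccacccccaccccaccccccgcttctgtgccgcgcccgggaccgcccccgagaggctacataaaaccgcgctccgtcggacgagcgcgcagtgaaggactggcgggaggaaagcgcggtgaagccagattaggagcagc
Epha2: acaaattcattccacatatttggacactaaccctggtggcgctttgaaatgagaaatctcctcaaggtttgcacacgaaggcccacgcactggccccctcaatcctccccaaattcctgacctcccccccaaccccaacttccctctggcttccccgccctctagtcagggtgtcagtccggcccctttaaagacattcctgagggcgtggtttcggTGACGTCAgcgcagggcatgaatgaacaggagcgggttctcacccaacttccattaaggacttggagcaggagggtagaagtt

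Windows were at hand for 52 of the 81 genes, 70 windows in all, and were searched on both strands. GGCGCC was in 14 of them (20%, against 11.9% of all 32851 windows) and TGACGTCA in 3 (4.29%, against 1.79%). The CArG box that serum response factor binds was in 3 (4.29%, against 1.63%), and TTTNNCGC, an E2F site core, in 5 (7.14%, against 5.17%). GAANNTTC was in 5 windows (7.14%, against 7.86%), TGANTCA, the AP-1 site, in 4 (5.71%, against 7.81%) and TATAAA in 6 (8.57%, against 13.6%). The Id3 window held none of these motifs, and no window was at hand for Id1. All of these are matches of letters in a window and were not tested against binding or expression. Some genes had several windows, and overlapping ones could hold the same match, as for GGCGCC in Zbtb17 and the AP-1 site in Sphk1. The windows compared against were not limited to genes tested here.

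The values at 0, 6 and 24 h chose the probes, so the rise and the fall are given as description and carry no test. The rise from 0 to 6 h had a median of 0.67 and ran from 0.50 to 3.44 on the log2 scale; 9 probes rose by at least 1 and 63 by under 0.75. The fall from 6 to 24 h had a median of -0.60 and reached -1.63. The member nearest to the rise threshold stood at 0.502 and the highest probe left out by it at 0.498; for the fall these values were -0.412 and -0.399. Leaving out 6 h replicate 2 would have chosen 154 probes, and the choice depended on the intensity scale: 12 probes met the rule without background correction and 271 on the log2 values of the authors. There were 35 probes within 0.05 below the rise threshold, 15 within 0.05 of the fall threshold on its outer side, and 27 members within 0.05 inside either one. The median 0 h signal was 5.74 for the 95 probes and 7.12 for all tested probes. Both 6 h arrays detected 94 of the 95, neither 0 h array detected 19, and 56 (58.9%, against 75.9% of tested probes) were detected on all 16 arrays.

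At 3 h the median member stood 0.35 above its 0 h level, and 31 of the 95 were already at least 0.5 higher. Expressed as a share of each probe's own 6 h rise, the 3 h level had a median of 50.8%, the 9 h level 67.9%, the 12 h level 46.9% and the 24 h level 9.03%. Among the induced times the highest mean fell at 6 h for 63 probes, at 9 h for 15, at 3 h for 11 and at 48 h for 6, which were Gsc, Nr2f1, Kdelr3, Cbln1, Ndrg1 and Il13ra1. The rule asked for a raised 6 h mean and a lower 24 h mean. It thus favoured a peak at 6 h and allowed none at 0 or 24 h. The peak counts and the shares of the 6 h rise follow in part from it. By 24 h the median difference from 0 h was 0.06, with 59 probes above and 36 below their 0 h level. At 48 h the median was -0.04, but single probes had moved away from 0 h in both directions, between -2.50 and 2.56, with 19 at least 0.5 higher and 17 at least 0.5 lower. The 48 h control had the same median, -0.04, and ranged from -1.63 to 3.62.

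**Figure D1:**
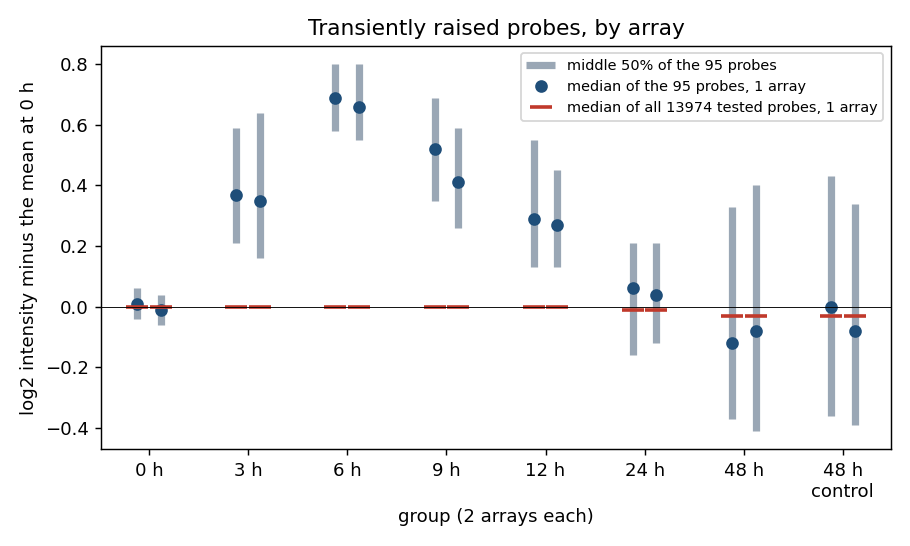
Median (points) and middle 50% (grey bars) of the 95 probes on each of the 16 arrays, as log2 intensity minus the 0 h mean; red dashes are the median of all 13974 tested probes. The array medians are 0.69 and 0.66 at 6 h and 0.06 and 0.04 at 24 h, where the rule fixed them, and both arrays of a group lie close together at every time.

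Outside the 95, 16 of the member genes had further probes that passed the detection filter, 21 probes in all. Further probes that did not pass it were not counted. For 16 of the 21 (76.2%) the 6 h mean lay above both the 0 h and the 24 h mean, as it did for 27.7% of all tested probes, and their median rise was 0.46 and median fall -0.34. These genes were chosen on the same 0, 6 and 24 h arrays. Some of the further probes missed the rule narrowly, such as that of Cmtm4 (rise 0.67, fall -0.39). The share is therefore description and not an independent check. Not all probes of a gene agreed. A further Sgk3 probe (ILMN_3108894) was 0.25 lower at 6 h than at 0 h, with means of 8.31 and 8.56, and a further Plec probe (ILMN_3109360) was 1.01 higher at 6 h and 0.04 above its 6 h mean at 24 h.

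**Figure D2:**
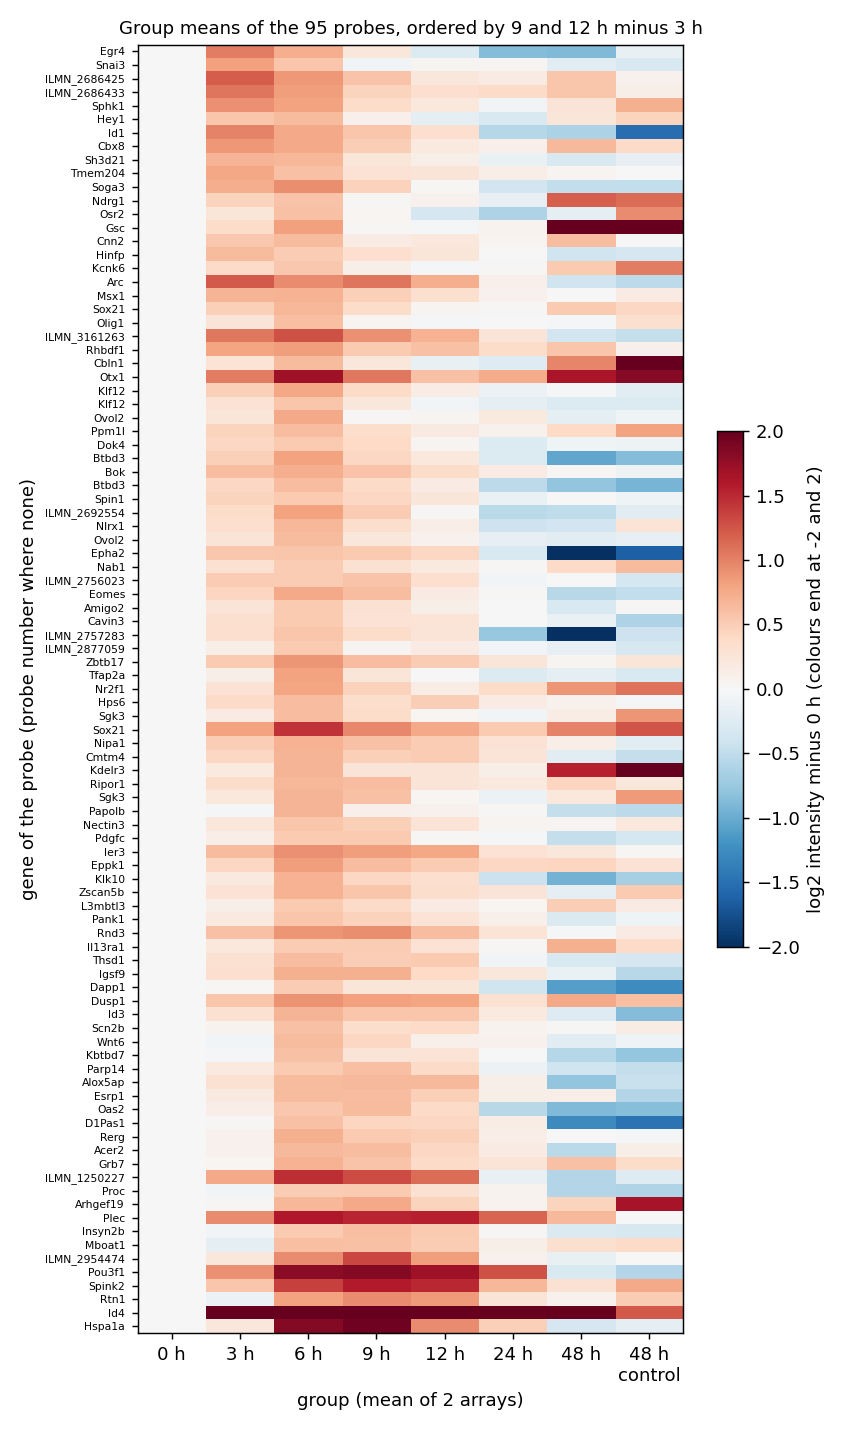
Group means of the 95 probes as log2 intensity minus the 0 h mean (colour scale, ending at -2 and 2), with the rows ordered by the mean of 9 and 12 h minus 3 h. The top rows, led by Egr4 and Snai3, are strongest at 3 and 6 h, and the bottom rows, ending in Hspa1a, are strongest from 6 to 12 h; the 2 right columns hold both signs.

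The mean of 9 and 12 h was compared with 3 h, groups the rule did not use. They lie on either side of 6 h, where the rule favoured the highest level. The comparison sets the levels before and after 6 h against each other and does not show how much of the rise was complete at 3 h. At an adjusted p under 0.05, 19 of the 95 probes were higher at 9 and 12 h than at 3 h and 16 were lower, against 9.96% of all tested probes called (5.62% higher and 4.34% lower). The median difference over the 95 was 0.02 and over all tested probes -0.00. The probes called higher included Hspa1a, Id4, Rtn1, Spink2, Pou3f1, Plec and Arhgef19; those called lower included Egr4, Snai3, Sphk1, Hey1, Id1, Cbx8 and Ndrg1. Some of these examples were picked after their values were seen. Without 3 h replicate 2 the count called was 17 in place of 35, and without 3 h replicate 1 it was 23. As description, the probes called higher had stood a median of 0.09 above 0 h at 3 h, and those called lower 0.80; both values share the 3 h arrays with the test.

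**Figure D3:**
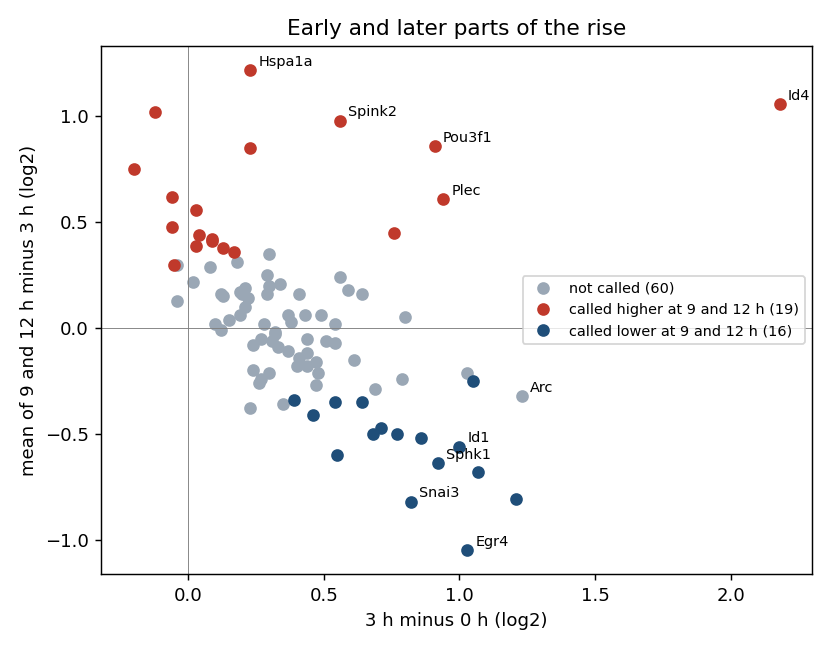
Each point is 1 of the 95 probes: difference of 3 h from 0 h (horizontal, log2) against the difference of the 9 and 12 h mean from 3 h (vertical, log2), coloured by the limma call for the vertical axis. Both axes contain the 3 h arrays; Id4 stands alone at the upper right, at 2.18 and 1.06, and Egr4 lowest, at 1.03 and -1.05.

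Between 9 and 12 h no probe was called at an adjusted p under 0.05, among the 95 or on the whole array (0% called); the lowest adjusted p was 0.186. At an unadjusted p under 0.05 limma gave 25 of the 95, all lower at 12 h, against 8.22% of all tested probes (3.99% higher and 4.23% lower). The median member difference was -0.18, with 83 of 95 probes lower at 12 h, against a median of -0.00 over all tested probes. Both times lie between the 6 and 24 h means that chose the probes, so a lean to lower values follows in part from the rule. Hspa1a had the most negative value: it read 7.29 and 7.01 at 9 h and 6.33 and 5.96 at 12 h, and it was called without background correction (adjusted p = 0.0131) and with an offset of 50 (adjusted p = 0.00234).

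At 48 h of induction, 61 of the 95 probes were lower and 10 higher than at 9 and 12 h, where 51.9% of all tested probes were called (25.2% higher and 26.7% lower). In the 48 h control, 59 were lower and 17 higher, where 55% of all were called (26.4% higher and 28.6% lower). The median differences were -0.43 and -0.41 for the 95, against -0.02 and -0.03 over all tested probes. Both comparisons use the same 9 and 12 h arrays.

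Set directly against the control, the 48 h induced samples had 12 of the 95 probes higher and 20 lower, where 17.9% of all tested probes were called (8.85% higher and 9.05% lower). The median difference was 0.00, against 0.01 over all. The probes called higher at 48 h than in the control were led by Id4, Id1, Esrp1, Plec and Cnn2. Those called lower were led by ILMN_2757283, Cbln1, Gsc, Arhgef19 and Osr2. Of the called differences of at least 1 log2 unit, 1 was higher (Id4) and 5 lower. The share of all tested probes at that size was not counted, so this split has no reference. In 3 of the 32 called probes, Olig1 among them, neither group was well above background and no fold is given. Leaving out 48 h replicate 1 or 2 gave 20 calls, and leaving out control replicate 2 gave 21. Markers of feeder fibroblasts differed between the same groups: 7 of their 10 tested probes were higher at 48 h than in the control, 4 of them for Acta2. Their summed linear level was 4100 to 4360 on the 48 h arrays and 1434 to 1468 on the control arrays (2853 to 3190 at the other times). This sum mostly follows Acta2, whose brightest probe averaged 11.37 at 48 h and 9.22 in the control. Pdgfra (7.12 and 7.07, limma adjusted p = 0.807) and Thy1 (5.45 and 5.52, adjusted p = 0.735) were not called, so the sum does not measure the amount of feeder cells. Col1a1 stayed below the detection threshold on all 4 arrays harvested at 48 h, Col1a2, Col3a1, Postn, Lum and Pdgfrb had no probe past the detection filter, and the part of these markers in the differences was not tested.

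**Figure D4:**
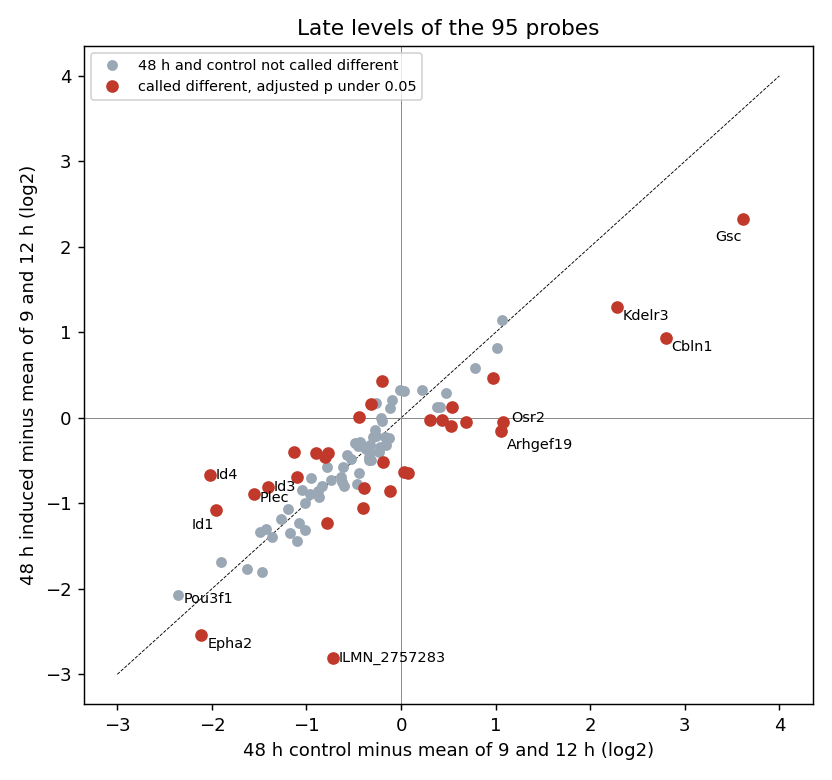
Each point is 1 of the 95 probes: the 48 h control (horizontal) and 48 h of induction (vertical), both as log2 difference from the 9 and 12 h mean, with the line of equal values dashed and probes called different between the 2 groups in red. Both axes contain the 9 and 12 h arrays. Id4, Id1 and Id3 lie above the line, and Gsc, Kdelr3, Cbln1 and ILMN_2757283 below it.

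The helix-loop-helix inhibitors Id1, Id3 and Id4 were all members, and the 3 were lower at 48 h and in the control than at 9 and 12 h (26.7% and 28.6% of all tested probes were) and higher at 48 h than in the control (8.85% of all). The fall from 9 and 12 h follows in part from the rule. Id4 had the largest rise of the 95. It read 5.26 and 5.18 at 0 h, 7.42 and 7.38 at 3 h, 8.78 and 8.55 at 6 h, 8.47 and 8.67 at 9 h, 8.39 and 8.28 at 12 h, 7.87 and 7.89 at 24 h, 7.72 and 7.85 at 48 h, and 6.49 and 6.38 in the 48 h control. All later arrays were above both 0 h arrays, so Id4 fell only in part after 6 h, and the 48 h arrays did not overlap with those of the control. The rise to 6 h was 10.9-fold, the 9 and 12 h level was 2.08-fold above 3 h (log2 difference 1.06, SE 0.09, adjusted p = 1.39e-05), and the 48 h level was 2.55-fold above the control (log2 1.35, SE 0.10, adjusted p = 6.68e-07).

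Id1 was at its highest at 3 h. Its values were 7.36 and 7.36 at 0 h, 8.31 and 8.41 at 3 h, 8.06 and 8.17 at 6 h, 7.94 and 7.88 at 9 h, 7.67 and 7.71 at 12 h, 6.96 and 6.62 at 24 h, 6.76 and 6.68 at 48 h, and 6.00 and 5.68 in the control. From 24 h on it lay below both 0 h arrays, unlike Id4. It was lower at 9 and 12 h than at 3 h (log2 -0.56, SE 0.10, adjusted p = 0.00338) and exceeded the control 1.84-fold at 48 h (log2 0.88, SE 0.12, adjusted p = 0.000136). Id3 moved less: 6.03 and 5.62 at 0 h, 6.16 and 6.07 at 3 h, 6.52 and 6.47 at 6 h, 6.58 and 6.17 at 9 h, 6.16 and 6.57 at 12 h, 5.97 and 6.05 at 24 h, 5.56 and 5.55 at 48 h, and 5.03 and 4.89 in the control, where it was not well above background. At 48 h Id3 exceeded the control at least 1.4-fold (adjusted p = 0.016). The difference of 0.25 between its 9 and 12 h mean and 3 h did not pass the test (adjusted p = 0.265).

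**Figure D5:**
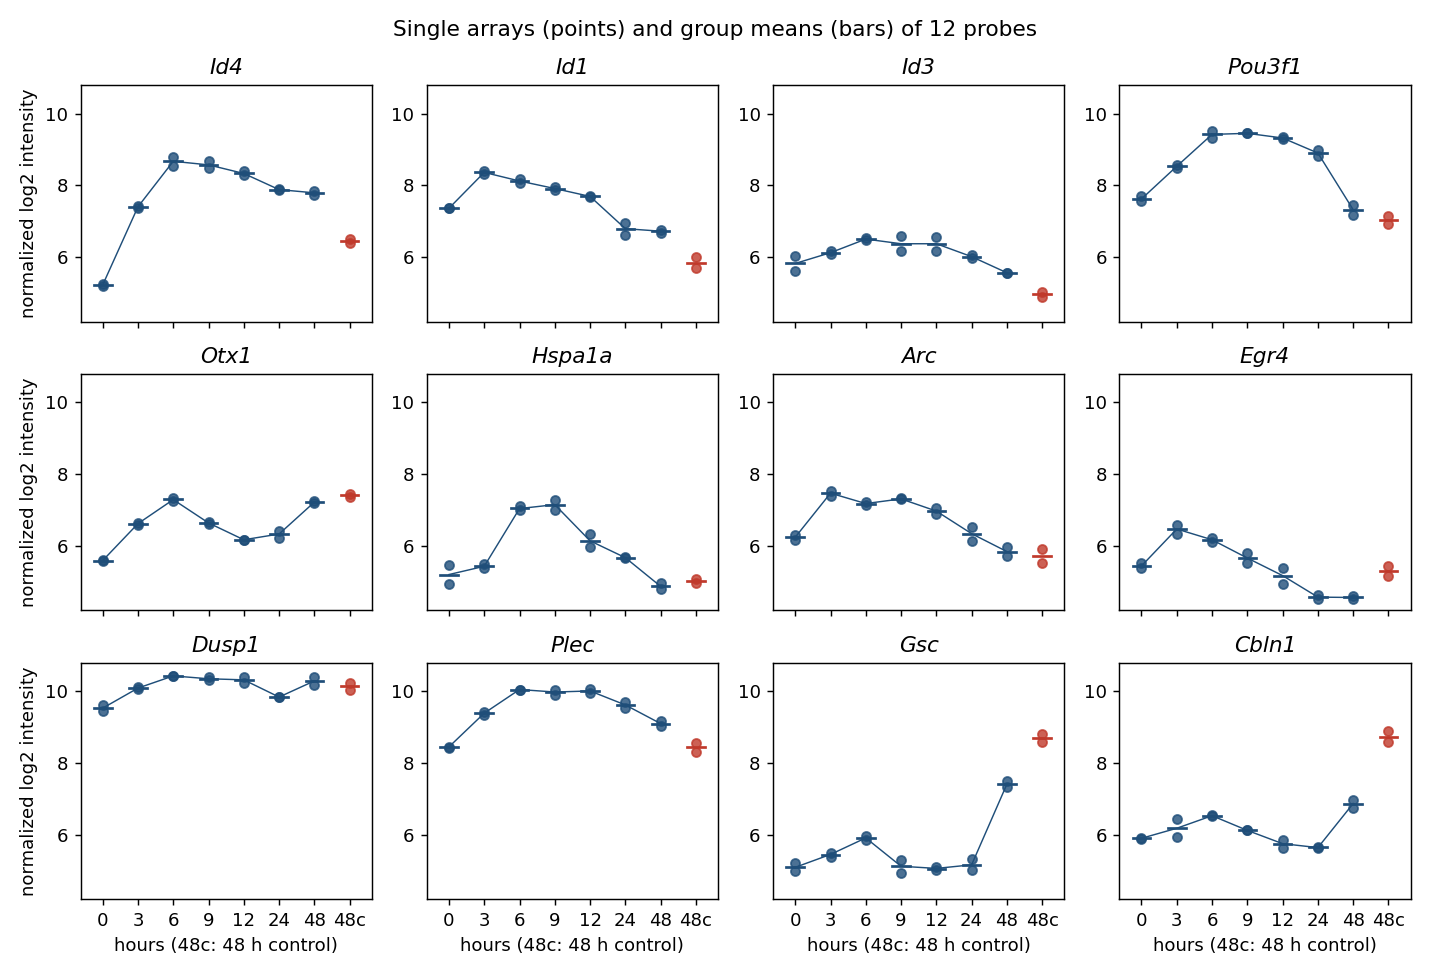
Normalized log2 intensity of 12 probes on each array (points) with group means (bars), over hours of induction in blue and the 48 h control (48c) in red, on a common vertical scale. Id4 stays above its 0 h level through 48 h, Arc and Egr4 are highest at 3 h, Hspa1a at 6 and 9 h, and Gsc and Cbln1 are highest in the 48 h control.

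Rapid-response and kinase-feedback genes among the 95 were Arc, Egr4, Ier3, Dusp1 and Nab1, with rises to 6 h between 0.51 and 0.94; of the 5, 1 was lower at 9 and 12 h than at 3 h (4.34% of all tested probes) and 4 did not pass. Arc, an activity-regulated cytoskeletal protein of neurons, read 6.31 and 6.17 at 0 h, 7.54 and 7.39 at 3 h, 7.22 and 7.13 at 6 h, 7.30 and 7.33 at 9 h, 7.05 and 6.88 at 12 h, 6.53 and 6.14 at 24 h, 5.71 and 5.96 at 48 h, and 5.91 and 5.51 in the control. It was above 0 h on all arrays from 3 to 12 h and was 2.47-fold lower at 48 h than at 9 and 12 h (log2 -1.30, SE 0.13, adjusted p = 9.85e-07). Egr4, a zinc-finger factor of the early growth response family, read 5.37 and 5.51 at 0 h, 6.59 and 6.34 at 3 h, 6.11 and 6.23 at 6 h, 5.53 and 5.80 at 9 h, and 5.39 and 4.94 at 12 h, and was not well above background at 24 or 48 h. Its difference between 9 and 12 h and 3 h was the most negative of the 95, 2.07-fold lower (log2 -1.05, SE 0.13, adjusted p = 0.00016), and its control arrays read 5.16 and 5.43, at least 1.14-fold above those at 48 h (adjusted p = 0.0031).

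Dusp1, a phosphatase that switches off MAP kinases, was high from 3 h on apart from 24 h. It read 9.61 and 9.46 at 0 h, 10.13 and 10.06 at 3 h, 10.43 and 10.42 at 6 h, 10.39 and 10.32 at 9 h, 10.40 and 10.24 at 12 h, 9.83 and 9.84 at 24 h, 10.40 and 10.19 at 48 h, and 10.23 and 10.04 in the control. Its 24 h arrays lay below those of 3 to 12 h and of 48 h; the 48 h difference from 9 and 12 h did not pass (log2 -0.04, SE 0.09, adjusted p = 0.725). Ier3, an early gene linked to cell survival, was 7.63 and 7.60 at 0 h and 8.48 and 8.58 at 6 h. At 48 h it was 1.49-fold lower than at 9 and 12 h (log2 -0.57, SE 0.08, adjusted p = 4.18e-05). Nab1, a co-repressor of the early growth response factors, was called higher in the control than at 9 and 12 h by 0.38 (SE 0.10, adjusted p = 0.0036). Further Nab1 probes differed: ILMN_2712635 averaged 5.41 at 9 h, 5.27 at 12 h and 5.18 in the control. ILMN_2712634 (5.31, 5.38 and 5.55) and ILMN_2950594 (6.98, 6.76 and 7.01) were higher in the control. For ILMN_2712634 the 6 h difference from 0 h was -0.03. Of the wider list of immediate early genes, 33 probes were tested and 2 were members (6.06%), with a median 6 h difference from 0 h of -0.20. Jun and Fos rose by 1.35 and 1.37 at 6 h and stood 0.37 above and 0.05 below that level at 24 h, so they were not members, and the Klf2 probe was lower at 6 h.

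Hspa1a, the inducible heat shock protein of the HSP70 family, had the second largest rise. It read 4.93 and 5.47 at 0 h, 5.49 and 5.37 at 3 h, 7.10 and 6.99 at 6 h, 7.29 and 7.01 at 9 h, 6.33 and 5.96 at 12 h, 5.68 and 5.66 at 24 h, 4.95 and 4.79 at 48 h, and 5.08 and 4.96 in the control. The 3 h arrays overlapped with those of 0 h, and the rise lay between 3 and 6 h. It was 2.32-fold higher at 9 and 12 h than at 3 h (log2 1.22, SE 0.14, adjusted p = 9.74e-05) and at least 2.92-fold lower at 48 h than at 9 and 12 h (adjusted p = 1.07e-07). The array probe cannot be assumed to separate Hspa1a from its near-identical copy Hspa1b. The other tested heat shock probes were not members: 1 of 12 list probes (8.33%) was. Kdelr3, a receptor that returns proteins to the endoplasmic reticulum, rose by 0.68 at 6 h and then again late: it read 9.35 and 9.09 at 48 h and 10.26 and 10.14 in the control, 2.47-fold and 4.87-fold above 9 and 12 h.

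Developmental transcription factors made up 17 probes of 14 genes, with rises between 0.55 and 1.79. Their late calls were mixed: 8 of 17 were lower and 4 higher at 48 h than at 9 and 12 h (26.7% and 25.2% of all tested probes), and 7 lower and 7 higher in the control (28.6% and 26.4% of all). The rule favoured the lower calls. Pou3f1, a POU factor of the epiblast and nervous system, read 7.69 and 7.55 at 0 h, 8.57 and 8.49 at 3 h, 9.52 and 9.32 at 6 h, 9.46 and 9.45 at 9 h, 9.36 and 9.28 at 12 h, 8.99 and 8.81 at 24 h, 7.46 and 7.18 at 48 h, and 7.14 and 6.91 in the control. It stayed near its 6 h level to 12 h and at 48 h was 4.19-fold lower than at 9 and 12 h (log2 -2.07, SE 0.10, adjusted p = 1.3e-09).

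Otx1, a homeodomain factor of the anterior brain, dipped and returned. Its values were 5.60 and 5.58 at 0 h, 6.65 and 6.58 at 3 h, 7.33 and 7.26 at 6 h, 6.67 and 6.60 at 9 h, 6.16 and 6.17 at 12 h, 6.42 and 6.23 at 24 h, 7.19 and 7.26 at 48 h, and 7.45 and 7.37 in the control. All 48 h and control arrays were above those of 9 to 24 h, and the differences from 9 and 12 h were 1.77-fold (log2 0.82, SE 0.08, adjusted p = 6.72e-07) and 2.01-fold (log2 1.01, SE 0.08, adjusted p = 6.54e-08). Sox21, a SOX factor expressed in neural progenitors, had a rise of 1.44 in its brighter probe, from 8.39 and 8.34 at 0 h to 9.84 and 9.77 at 6 h. That probe was 1.33-fold higher in the control than at 9 and 12 h (adjusted p = 0.000572), while its 48 h difference from the control, -0.27, did not pass (adjusted p = 0.0549). The dimmer Sox21 probe rose by 0.67 and passed none of the tests.

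Gsc, the homeobox gene of the organizer, was detected on 1 of 4 arrays at 9 and 12 h (none at 12 h). It was at 5.20 and 4.98 at 0 h, 5.50 and 5.39 at 3 h, 5.96 and 5.86 at 6 h, 5.30 and 4.94 at 9 h, 5.09 and 5.02 at 12 h, 5.32 and 5.01 at 24 h, 7.49 and 7.34 at 48 h, and 8.82 and 8.60 in the control. All late arrays lay above every earlier one, and both late groups were called higher than 9 and 12 h (adjusted p = 1.82e-09 at 48 h and 2.22e-11 in the control); no fold is given against that near-background level. The 48 h level was 2.46-fold below the control (log2 -1.30, SE 0.14, adjusted p = 1.27e-05). Eomes, a T-box factor of mesoderm and endoderm, went the other way. It was 5.46 and 5.31 at 0 h, 6.07 and 6.22 at 6 h, and not well above background at 48 h in either group, at least 1.6-fold below 9 and 12 h at 48 h (adjusted p = 9.12e-07). Tfap2a, a factor of surface ectoderm and neural crest, rose by 0.79 and was not well above background from 24 h on. Hey1, a Notch target, was lower at 9 and 12 h than at 3 h (log2 -0.60, SE 0.09, adjusted p = 0.00104), as was Snai3, of the Snail family (log2 -0.82, SE 0.09, adjusted p = 6.15e-05). Osr2, a zinc-finger factor of the palate and limb, was higher in the control than at 9 and 12 h by 1.08 and lower at 48 h than in the control by 1.13 (adjusted p = 5.15e-05).

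Genes of adhesion, junctions and the cytoskeleton gave 12 probes; 8 were lower at 48 h than at 9 and 12 h and 1 higher (26.7% and 25.2% of all tested probes), and 5 were higher and 3 lower at 48 h than in the control (8.85% and 9.05% of all). The lean to lower values against 9 and 12 h follows in part from the rule. Plec, plectin, which ties intermediate filaments to junctions, read 8.43 and 8.46 at 0 h, 9.43 and 9.34 at 3 h, 10.05 and 10.05 at 6 h, 9.91 and 10.04 at 9 h, 10.07 and 9.96 at 12 h, 9.70 and 9.54 at 24 h, 9.04 and 9.16 at 48 h, and 8.57 and 8.31 in the control. Its plateau lasted to 12 h, and at 48 h it exceeded the control 1.58-fold (log2 0.66, SE 0.10, adjusted p = 0.000496). Esrp1, an epithelial splicing regulator, rose by 0.63 and was 8.46 and 8.44 at 48 h against 7.84 and 7.62 in the control, 1.65-fold higher (adjusted p = 0.00013). Cnn2, a calponin that binds actin, exceeded the control 1.56-fold at 48 h (log2 0.64, SE 0.11, adjusted p = 0.000861). Epha2, an ephrin receptor of early embryos, read 7.35 and 7.49 at 0 h, 7.99 and 7.97 at 6 h, 7.81 and 7.85 at 12 h, 7.23 and 6.99 at 24 h, 5.23 and 5.47 at 48 h, and 5.68 and 5.89 in the control. It was 5.83-fold lower at 48 h than at 9 and 12 h (adjusted p = 1.35e-10). Arhgef19 was 5.89 and 5.59 at 48 h against 7.14 and 6.76 in the control (log2 -1.21, SE 0.16, adjusted p = 7.87e-05).

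Secreted factors, receptors and signalling enzymes gave 18 probes of 17 genes, of which 6 were higher and 1 lower at 9 and 12 h than at 3 h (5.62% and 4.34% of all tested probes). At 48 h, 7 were lower and 1 higher than in the control (9.05% and 8.85% of all). Cbln1, a secreted synapse organizer, was at 5.89 and 5.92 at 0 h, 6.55 and 6.52 at 6 h, 5.66 and 5.63 at 24 h, 6.98 and 6.75 at 48 h, and 8.88 and 8.58 in the control. Its 48 h arrays were 3.64-fold below those of the control (log2 -1.87, SE 0.15, adjusted p = 8.04e-07), and both late groups were above 9 and 12 h. Spink2, a serine protease inhibitor, was not well above background at 0 h, was detected on 1 of 2 arrays at 3 h (5.12 and 5.50) and read 6.14 and 6.08 at 6 h, 6.37 and 6.30 at 9 h, and 6.29 and 6.21 at 12 h. It was 1.97-fold higher at 9 and 12 h than at 3 h (log2 0.98, SE 0.10, adjusted p = 6.37e-05). Sphk1, sphingosine kinase, peaked at 3 h with 6.46 and 6.57 and was lower at 9 and 12 h by 0.64 (adjusted p = 0.000599). Acer2, a ceramidase, was higher at 9 and 12 h than at 3 h by 0.42 (adjusted p = 0.00789) and at 48 h lay 1.58-fold below the control (adjusted p = 0.000514). Both member probes of Sgk3, a kinase related to AKT, were lower at 48 h than in the control, by 0.63 and 0.74. Other Sgk3 probes differed less: the means at 48 h and in the control were 8.79 and 8.91 for the brighter ILMN_3108894, and 5.3 and 5.47 for ILMN_2665364.

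The member probes of the antiviral and interferon-linked genes Oas2, Parp14 and Nlrx1 rose by 0.52 to 0.66, and all 3 were lower at 48 h than at 9 and 12 h (26.7% of all tested probes). Lower values than at 9 and 12 h follow in part from the rule. A further Nlrx1 probe (ILMN_2708222) rose by only 0.18 at 6 h. Its means were 5.53 at 9 h, 5.64 at 12 h and 5.51 at 48 h, so the probes of Nlrx1 did not agree. Oas2, a sensor of double-stranded RNA, read 5.54 and 5.40 at 0 h, 6.05 and 5.97 at 6 h, and 5.87 and 6.34 at 9 h, and was not well above background at 24 or 48 h. Its 48 h level lay at least 1.84-fold below that of 9 and 12 h (adjusted p = 1.79e-07). Of the 13 tested probes of the interferon list, none was a member, where 0.68% of all tested probes were.

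The 9 probes without a gene rose by 0.50 to 1.48. ILMN_3161263 was at 10.59 and 10.65 at 0 h, 11.66 and 11.69 at 3 h, 11.86 and 11.94 at 6 h, and 10.23 and 10.26 at 48 h. ILMN_1250227 rose from 5.71 and 5.83 to 7.32 and 7.17 at 6 h and had the deepest fall of the 95, -1.63. ILMN_2954474 was detected on both arrays only at 6, 9 and 12 h. ILMN_2757283 had the widest gap between the late groups: it read 9.14 and 9.10 at 6 h, 5.94 and 6.20 at 48 h, and 8.23 and 8.08 in the control, a 4.23-fold difference (log2 -2.08, SE 0.11, adjusted p = 1.8e-08). Among the 26 probes of other genes, 19 were lower at 48 h than at 9 and 12 h and 3 higher (26.7% and 25.2% of all tested probes). This lean follows in part from the rule. Soga3 read 6.02 and 5.84 at 6 h and was not well above background at 0 h or from 12 h on, and both Btbd3 probes were lower at 48 h than at 9 and 12 h, by 1.35 and 1.07. Ndrg1, a stress- and differentiation-linked gene, was higher than at 9 and 12 h at 48 h and in the control, by 1.15 and 1.07.

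Other lists of genes held few or no members. With 0.68% of all tested probes chosen, a list of 36 probes or fewer is likely to hold none. An empty list therefore says little about its genes. None of 36 E2F target probes, 32 p53 target probes, 21 probes of the unfolded protein and amino acid response, 7 probes of Hox and vitamin A response genes, 10 feeder fibroblast probes or 7 probes for chromatin partners of E1A was among the 95. The mesoderm and endoderm list had 2 of 10 probes (Gsc and Eomes) and the neural ectoderm list 1 of 8 (Pou3f1), against 0.68% of all tested probes.

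Probes that moved the opposite way, lower at 6 h and higher again at 24 h by the same sizes, numbered 56, and 258 rose by at least 0.5 at 6 h without the later fall. At 9 and 12 h against 3 h, the 258 had 137 probes higher (53.1%) and 1 lower, where the 95 had 20% higher and 16.8% lower. At 48 h against the control, the 258 had 34.1% higher and 7.75% lower, and the 95 had 12.6% higher and 21.1% lower. The difference between these sets was not tested.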

How the data were processed

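Illumina bead arrays of 16 samples (8 groups of 2, from the sample titles) were used. The deposited table gives a linear intensity and a detection p-value per probe and array; the deposited intensities are called non-normalized by the authors in the name of the file, and their medians differ between arrays. A second deposited table holds log2 values of the authors (column median 4.13, r of 0.9928 with background-corrected values computed here; its exact centring is unknown) and served as an alternative. The submitters' processing notes name BeadStudio 3.2, RMA and lumi, with no role for each. The genome build is not given in the sources used here.

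Intensities were background-corrected from the detection p-values, given an offset of 16, quantile normalized and taken to log2 (neqc, limma 3.58.1, R 4.3.3). The offset shrinks differences of dim probes. The filter asked for a detection p-value below 0.05 on 2 or more of the 16 arrays, which kept 13974 probes and left out 11723. A limma model with 1 coefficient per group (8 residual and 6.3 prior degrees of freedom) gave each contrast, with Benjamini-Hochberg adjustment over all 13974 probes within each of the 5 contrasts tested; calls are at an adjusted p under 0.05. Contrasts with 0, 6 or 24 h were not tested, since they chose the members. Where no array of a side reached detection (p under 0.05), the probe counted as not well above background and its fold is a bound ("at least"), against the higher of its own signal and the lowest detected signal of each array. Genes came from the platform annotation, through which 23978 of 25697 probes had 1 gene and 1719 none; promoters came from RefSeq (GRCm38.p6).

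The members and lists were chosen with earlier results of these data known. Genes named by rule were the 12 with the largest 6 h rise, the members of the gene lists, and the 5 highest and 5 lowest called at 48 h against the control; the other names and the grouping by role were chosen after their values were seen. In simulated arrays of the 48 h against control contrast, over 14771 probes, 76.1%, 98.5% and 100% of probes changed by 0.5, 1 and 2 log2 units were called. These shares were not split by signal level. The members were dim, with a median 0 h signal of 5.74 against 7.12 for all tested probes. The shares therefore do not show how many such changes would be called among the members. Alternatives were other background, offset, scaling, filter, moderation and threshold settings, the replicate block and leaving out each array.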

Additional observations from a re-analysis of the deposited data

How the results depend on the processing

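The number of probes meeting the rule was sensitive to the intensity scale: 12 without background correction, 30 with an offset of 50, 271 on the authors' log2 values, 56 when detection on all 16 arrays was required, 210 with thresholds of 0.4 and -0.3, 9 with a rise of 1, and 92 to 154 when 1 array was left out (154 without 6 h replicate 2). Median scaling gave 83 and cyclic loess 103. The tests below kept the 95 probes. Between 12 and 9 h 1 probe was called without background correction and with an offset of 50 (Hspa1a in both, log2 -0.47 and -0.75) and 1 with trend and robust moderation; leaving out 1 array gave 0 to 1. The median of that comparison was -0.08 without background correction, -0.13 with an offset of 50, -0.26 under median scaling and -0.21 to -0.13 with 1 array left out. The 48 h against 9 and 12 h median was -0.19 and -0.26 in the first 2 settings, -0.70 on the authors' values, and -0.50 to -0.42 with 1 array left out; the control's was -0.18, -0.24, -0.68, -0.33 with detection on all arrays, and -0.42 to -0.34. Their counts called were 41 and 45 with detection on all 16 arrays, which leaves 56 members, and 62 to 72 and 64 to 78 with 1 array left out. For 9 and 12 h against 3 h the count called was 20 with detection on all arrays, 21 at an adjusted p under 0.01, and 17 to 34 with 1 array left out (17 without 3 h replicate 2, 23 without 3 h replicate 1); its median was 0.06 with detection on all arrays and -0.01 to 0.06. For 48 h against the control the count was 19 at an adjusted p under 0.01 and 20 to 32 with 1 array left out (20 without 48 h replicate 1 or 2, 21 without control replicate 2), and the median was -0.11 with detection on all arrays and -0.06 to 0.00. Of the named probes 11 were called, and 10 to 12 with 1 array left out; Spink2 lost its call in 5 settings, and Sox21 and ILMN_1250227 gained one in 7 and 6. The labels do not say that replicate numbers pair the samples, so the numbers were not used as pairs in the reported tests. The 28 correlations of replicate differences between groups ran from -0.07 to 0.29 (median 0.12), 16 over 0.1 and 0 under -0.1. They leaned positive, so arrays with the same replicate number may share a component. With the replicate block the counts were 39, 74, 77 and 35, in place of 35, 71, 76 and 32, and the block moved none of them by over 1.5 times; Pou3f1 passed 48 h against the control only there (adjusted p = 0.0295). Median scaling moved the higher share of all called probes between the late groups from 49.4% to 59%, and that of the 95 from 37.5% to 37.9%. No named probe that was called changed direction in any setting run.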
